A study of Mus musculus with 10 samples.

Results

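Ogfrl1 and Slc22a15 were the 2 genes, of 46316 counted, left by a selection on level and by exclusions of genes by name. Both were well expressed in every library of normal germinal centre B cells. They were nearly without reads in every library of both mouse B cell lymphomas. They were chosen on these same levels. A gene had to reach at least 20 CPM (counts per 1000000 counts of the library) in each of the 4 libraries of sorted normal cells and to stay under 1 CPM in each of the 6 lymphoma libraries. The minimum in normal cells was met by 7329 genes, of which 31 were under 1 CPM in every pBIC10 library and 50 in every pBIC library. Both limits were met by 13 genes. The selection left out 10 of them whose names are of immunoglobulin segments, T cell receptor segments or predicted genes, and Gcsam by its own name. This leaves Ogfrl1 on chromosome 1 and Slc22a15 on chromosome 3.

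Germinal centres are sites in spleen and lymph node where activated B cells divide, mutate their immunoglobulin genes and are selected by antigen. Bcl6 represses genes that would end this state, and Blimp1, encoded by Prdm1, drives exit from it into plasma cell differentiation. Ogfrl1 is named for its likeness to Ogfr, the receptor of the opioid growth factor, and its own function is little defined. Slc22a15 belongs to the SLC22 family of organic ion transporters of the cell membrane, and the human protein carries zwitterions such as ergothioneine.

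RNA of splenic B cells from 10 C57BL/6 mice was compared in 3 groups, all carrying Cg1Cre/+, a Cre recombinase that germinal centre B cells switch on. The pBIC10 lymphomas (n = 3, 2 females and 1 male) came from mice with the alleles p53F/F, Blimp1F/F, IKK2castopF/stopF and IL-10F/F, so that p53, Blimp1 and interleukin 10 can be deleted and an active IKK2 switched on in the same cells. The pBIC lymphomas (n = 3, all female) had the same alleles without IL-10F/F. The YC cells (n = 4, 3 females and 1 male) were sorted as B220+YFP+ from YFPstopF/+ Cg1Cre/+ mice 10 days after the second of a pair of sheep red blood cell immunisations given 20 days apart. Some label fields of the YC samples repeat the wording used for the lymphomas, and the study's design text was followed here. The authors re-analysed the pBIC and YC libraries from an earlier series, so the difference between series cannot be told apart from the group in any comparison with pBIC10.

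The pBIC10 libraries held 17100995 to 18578955 counts, the pBIC libraries 17797344 to 19134178 and the YC libraries 12590117 to 14330172. At these depths 1 CPM was 17.1 to 19.1 counts in a lymphoma library, and 3 counts, the limit that a count of 0 allows, were 0.157 to 0.238 CPM. Of the targeted genes, Trp53 had 38.4 to 49.5 CPM in pBIC10, 16.9 to 53.6 in pBIC and 180 to 198 in YC, and Prdm1 had 0.350 to 1.67 CPM in pBIC10, 5.90 to 15.1 in pBIC and 16.5 to 38.4 in YC. Ikbkb, which encodes IKK2, had 352 to 418 CPM in pBIC10, 206 to 351 in pBIC and 127 to 161 in YC. Il10 had 1.98 to 5.01 CPM in pBIC10, 6.32 to 20.3 in pBIC and 4.24 to 10.2 in YC. A single variable segment led the immunoglobulin heavy chain counts in each lymphoma, Ighv7-3 with 67.4 to 70.5% of them in the pBIC10 libraries and Ighv8-11 with 51.6 to 59.1% in the pBIC libraries. In YC the leading segment was another in each library and took 3.73 to 10.9%. All p-values assume that the libraries within a group are independent of each other, although those of each lymphoma share this segment.

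The region around the annotated start of Slc22a15 is shown as the place where transcription of 1 of the 2 genes begins (1 of the 2 matched the RefSeq promoter table). It spans chr3:101924404-101924703 of GRCm38.p6 on the minus strand, from 250 bases before the start to 50 after it, written 5′ to 3′ along the gene. Capitals mark AGGAAG, an ETS core with its flank, or its reverse complement, with 3 matches over both strands. Cores with other flanks are not marked.
Slc22a15 promoter: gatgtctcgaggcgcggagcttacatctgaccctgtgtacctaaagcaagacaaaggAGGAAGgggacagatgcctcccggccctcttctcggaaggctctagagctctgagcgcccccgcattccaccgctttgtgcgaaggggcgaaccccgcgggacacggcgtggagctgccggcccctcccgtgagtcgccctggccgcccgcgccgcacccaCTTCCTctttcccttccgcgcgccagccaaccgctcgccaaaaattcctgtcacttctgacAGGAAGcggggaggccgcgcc
These 300 bases held 29 CpG dinucleotides and had a GC content of 66.0%. Fewer CpG were found in 87.1% of the 32851 mouse promoter windows of the same length. AGGAAG occurred on either strand in 35.4% of those windows, so windows that hold it are common. The E-box CANCTG had 2 matches (held by 51.4% of windows) and the GC box GGGCGG had 1 (held by 35.7%). The octamer ATGCAAAT (1.74% of windows) and the NF-kB motif (1.47%) had 0 matches, which says only that these letters are not in this window. Neither DNA methylation nor factor binding was measured in these libraries.

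Ogfrl1 had 0.175, 0.350 and 0.484 CPM in the 3 pBIC10 libraries, which were 3, 6 and 9 counts. It had 0.562, 0.627 and 0.807 CPM in the 3 pBIC libraries, which were 10, 12 and 15 counts. In the 4 YC libraries it had 54.0, 30.1, 50.3 and 42.9 CPM, which were 726, 379, 721 and 591 counts. The gene was low and not absent in every lymphoma library, and every lymphoma library lay far under every YC library. Its mean was 0.337 ± 0.155 CPM in pBIC10 (SD, n = 3), 0.665 ± 0.127 CPM in pBIC (SD, n = 3) and 44.3 ± 10.5 CPM in YC (SD, n = 4). The pBIC10 mean was 0.759% and the pBIC mean 1.5% of the YC mean. The highest lymphoma library had 0.807 CPM, against 30.1 CPM in the lowest YC library, a ratio of 37.3 for YC over lymphoma.

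Slc22a15 had 0.409, 0.0583 and 0 CPM in the 3 pBIC10 libraries, which were 7, 1 and 0 counts. It had 0.337, 0.105 and 0.269 CPM in the 3 pBIC libraries, which were 6, 2 and 5 counts. In the 4 YC libraries it had 37.7, 24.6, 37.1 and 27.6 CPM, which were 507, 310, 532 and 380 counts. The library without a read was pBIC10 replicate 3, in which a count of 0 allows up to 0.161 CPM. The mean was 0.156 ± 0.221 CPM in pBIC10 (SD, n = 3), 0.237 ± 0.120 CPM in pBIC (SD, n = 3) and 31.8 ± 6.64 CPM in YC (SD, n = 4). The pBIC10 mean was 0.491% and the pBIC mean 0.746% of the YC mean. The highest lymphoma library had 0.409 CPM, against 24.6 CPM in the lowest YC library, a ratio of 60.2 for YC over lymphoma.

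On the log2 scale the fitted differences of Ogfrl1 from YC were -7.02 ± 0.37 in pBIC10 and -6.03 ± 0.34 in pBIC (SE), and those of Slc22a15 were -7.65 ± 0.61 in pBIC10 and -7.04 ± 0.58 in pBIC. These values describe the selection and carry no test, because the selection required them. Of all 17718 genes tested with edgeR, 51.7% differed between pBIC10 and YC, with 26.9% lower and 24.8% higher in pBIC10, and 54.1% differed between pBIC and YC, with 27.7% lower and 26.4% higher in pBIC. Both comparisons share the YC libraries. In bulk RNA, fewer cells of a type and less RNA per cell cannot be told apart.

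**Figure D1:**
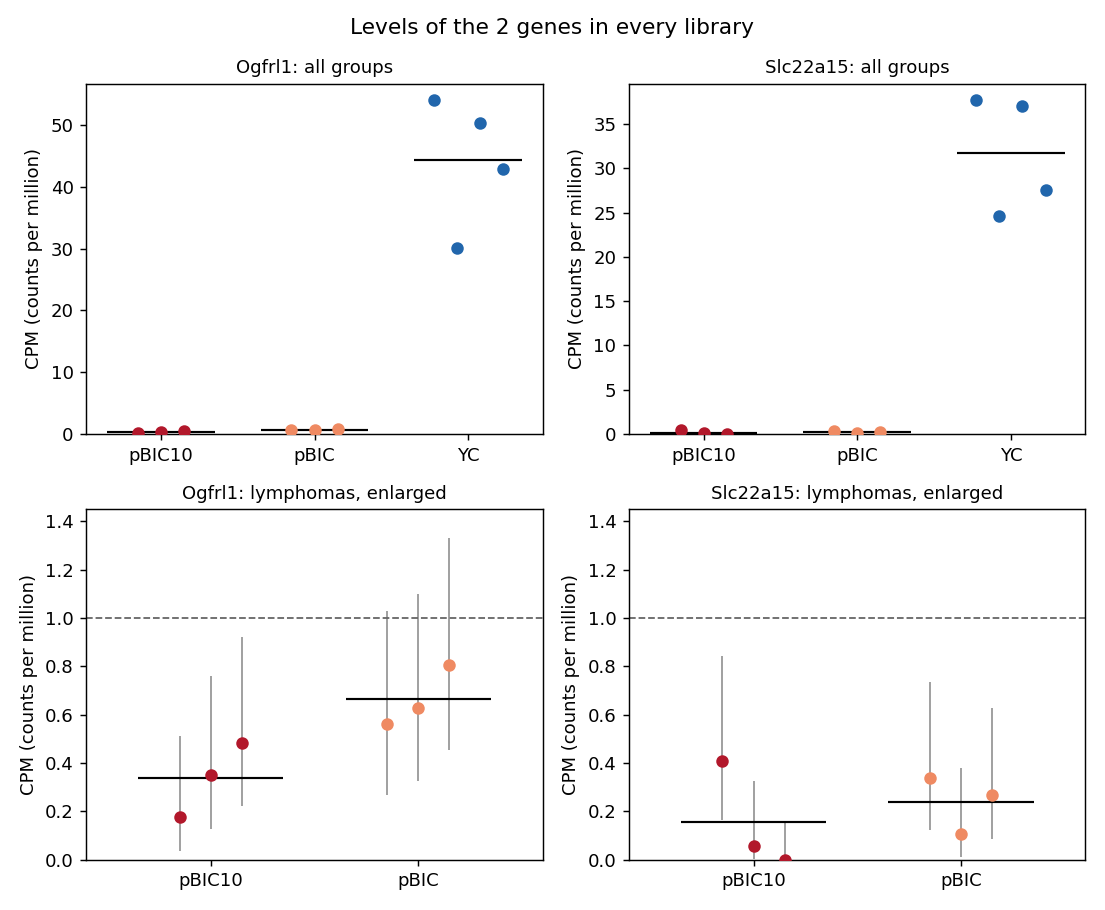
CPM (counts per 1000000 counts of the library) of Ogfrl1 and Slc22a15 in each pBIC10, pBIC and YC library, with every group above and the lymphoma groups enlarged below. Points are libraries, horizontal lines are group means, grey bars are exact 95% Poisson intervals for counting error (for the count of 0, the limit of 3 counts), and the dashed line marks 1 CPM. The YC points lie at 24.6 CPM or more, and every lymphoma point lies at 0.807 CPM or less.

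Ordered over the 10 libraries, Ogfrl1 was highest in the 4 YC libraries, then in the 3 pBIC libraries, then in the 3 pBIC10 libraries, with no overlap between any of the groups. The step from pBIC to pBIC10 was small in counts, and the counting intervals of neighbouring lymphoma libraries overlapped in the plot of both genes by library. Slc22a15 had no such order among the lymphomas. The single highest lymphoma library was pBIC10 replicate 1, the next 3 were the pBIC libraries, and the lowest were the other 2 pBIC10 libraries.

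The difference between the lymphomas was not used to choose the genes, and it was tested. The ceiling kept both genes at 0 to 15 counts per lymphoma library, which limits the difference and the power of the test. In the fit over all libraries both genes passed the filter on low counts only through their YC libraries. Among the lymphoma libraries alone Ogfrl1 passed it and Slc22a15 did not. The shares given beside the test are over genes of all levels. In pBIC10 against pBIC, neither gene was called by edgeR's quasi-likelihood test at a Benjamini-Hochberg adjusted p under 0.05 over all genes tested, whereas 30.7% of the 17718 genes were, 15.1% as lower and 15.6% as higher in pBIC10. DESeq2 also called 0 of the 2, and 1 of them, Ogfrl1, had an unadjusted edgeR p under 0.05. Ogfrl1 differed by -0.99 ± 0.40 on the log2 scale (95% interval -1.86 to -0.12, adjusted p = 0.0792 by edgeR). All 3 pBIC10 libraries were under all 3 pBIC libraries, as they were for 19.1% of the genes tested. A two-sided exact permutation test over the 6 libraries gave p = 0.1, the smallest this design allows. The adjusted p of Ogfrl1 was between 0.0587 and 0.422 in 18 alternative analyses, and its difference stayed between -1.31 and -0.70.

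Slc22a15 differed by -0.62 ± 0.80 on the log2 scale between pBIC10 and pBIC (95% interval -2.35 to 1.12, adjusted p = 0.60 by edgeR). The libraries of both lymphomas overlapped, and the two-sided exact permutation p was 0.7. The summed counts behind this comparison were 8 in pBIC10 and 13 in pBIC. Single libraries decided its value. Without pBIC10 replicate 1 the difference was -2.78 (adjusted p = 0.0428), and without pBIC10 replicate 3 it was 0.01 (adjusted p = 0.997). The interval is wide, and a p that misses the threshold does not show that the lymphomas have the same level.

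Among the YC libraries both genes followed 1 order, with replicate 1 highest, then replicate 3, replicate 4 and replicate 2. Ogfrl1 was at 122, 67.9, 114 and 96.8% of its YC mean in replicates 1 to 4, a coefficient of variation of 23.8%. Slc22a15 was at 119, 77.5, 117 and 86.8%, a coefficient of variation of 20.9%. The summed level of 10 germinal centre B cell markers was at 135, 84.7, 99.5 and 81.1% of its YC mean in the same libraries. It was highest in replicate 1, as both genes were, and lowest in replicate 4. Summed T cell markers were at 125, 77.6, 74.6 and 123%, and summed plasma cell markers at 113, 116, 63.0 and 107%, both lowest in replicate 3, in which both genes were second highest. Of the T cell sums of 558, 346, 333 and 549 CPM in replicates 1 to 4, Lck alone made 169, 173, 194 and 208 CPM. The T cell sum was also highest in replicate 1, and was low in replicate 2 too, in which both genes were lowest. The part of T cells in these levels was not tested. With 4 libraries no correlation was computed.

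**Figure D2:**
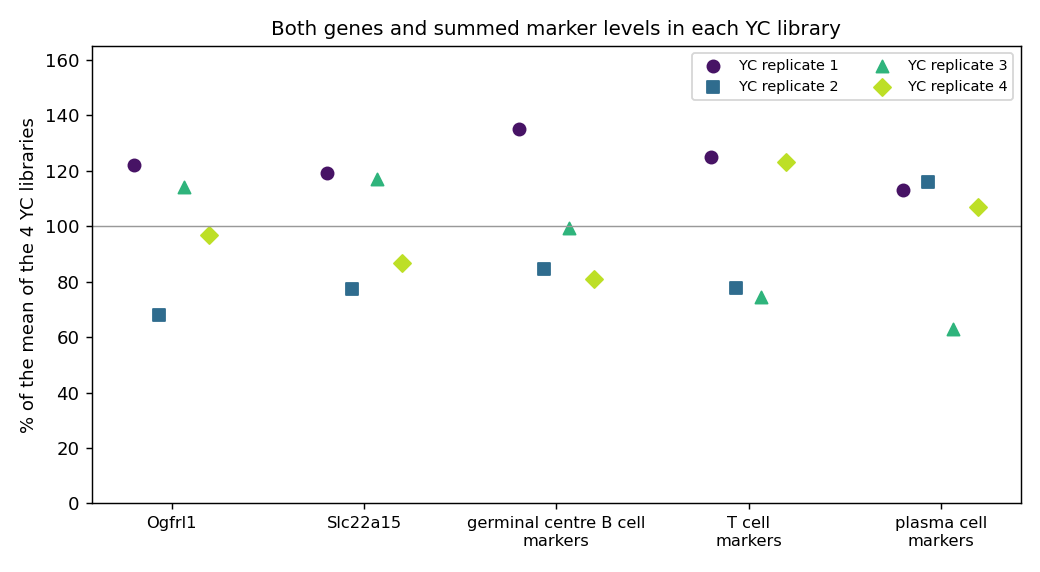
Level of Ogfrl1, Slc22a15 and the summed germinal centre B cell, T cell and plasma cell markers in each YC library, as a percentage of the mean of the 4 YC libraries. Colours and shapes stand for replicates 1 to 4. Both genes are highest in replicate 1 (122 and 119%) and lowest in replicate 2 (67.9 and 77.5%). The T cell sum is also highest in replicate 1 (125%), and is 77.6% in replicate 2. The T cell and plasma cell sums are lowest in replicate 3 (74.6 and 63.0%).

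All 10 B cell markers on the list, among them Cd79a and Pax5, were at 1 CPM or more in every library, with a summed level of 5690 to 11600 CPM in pBIC10, 8690 to 11800 in pBIC and 18900 to 22100 in YC. Germinal centre markers summed to 76.3 to 161 CPM in pBIC10, 80.9 to 230 in pBIC and 1080 to 1790 in YC. The label of the YC cells thus has its markers. YC cells also carried Fcer2a (CD23), at a mean of 588 CPM, and Cr2, at a mean of 181 CPM, both found on follicular B cells outside germinal centres. The study holds no normal B cells other than YC, so whether either gene is particular to germinal centre cells was not tested.

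Markers of other cells moved with the groups too. The 12 T cell markers summed to 52.3 to 140 CPM in pBIC10, 31.6 to 50 in pBIC and 333 to 558 in YC, and in every library of the group 3, 7 and 12 of them reached 1 CPM in pBIC10, pBIC and YC. Lck alone had 36.1 to 60.6 CPM in pBIC10, 7.7 to 27.0 in pBIC and 169 to 208 in YC. Il7r had 72.8 CPM in pBIC10 replicate 3. Lck, Il7r and Cd247 were higher in every pBIC10 library than in any pBIC library. Cd3e, Cd3d, Cd3g, Cd4, Cd8a, Cd5 and Lat were lower in every pBIC10 library than in any pBIC library, and Cd28 and Bcl11b overlapped. The 8 follicular helper T cell markers summed to 0.408 to 1.46 CPM in pBIC10, 7.54 to 17.9 in pBIC and 29.4 to 53.4 in YC. Plasma cell markers summed to 721 to 727 CPM in pBIC10, 891 to 1310 in pBIC and 1870 to 3450 in YC. NK cell markers summed to 1.35 to 3.04 CPM in pBIC10, 5.97 to 16.6 in pBIC and 29.5 to 78.1 in YC, with Klre1 at 0 counts in every pBIC10 library. Macrophage and monocyte markers summed to 26.2 to 30.5 CPM in pBIC10, 127 to 152 in pBIC and 140 to 204 in YC, with Fcgr1 at 0 counts in every pBIC10 library. Dendritic cell markers summed to 12 to 33.3 CPM in pBIC10, 21.7 to 40 in pBIC and 64.0 to 92.9 in YC. Neutrophil markers summed to 7.21 to 16.9 CPM in pBIC10, 2.96 to 51.2 in pBIC and 47.9 to 136 in YC. Platelet markers summed to 0.861 to 2.22 CPM in pBIC10, 0.562 to 1.61 in pBIC and 8.44 to 46.5 in YC, and follicular dendritic and stromal markers to 7.17 to 8.95 CPM in pBIC10, 3.37 to 9.98 in pBIC and 26.0 to 50.8 in YC. Endothelial markers overlapped between all groups, at 83.3 to 101 CPM in pBIC10, 96.1 to 124 in pBIC and 76.6 to 113 in YC. Nearly all of this sum was Pecam1, which is also on the germinal centre list. It had 81.3 to 97.6 CPM in pBIC10, 95.9 to 123 in pBIC and 74.8 to 110 in YC. The sum therefore says little about the other endothelial markers. Erythroid markers summed to 681 to 1630 CPM in pBIC10, 35.7 to 691 in pBIC and 182 to 563 in YC. In these last lists, the markers at 0 counts in a whole group were Pdpn, Col3a1 and Emcn in pBIC and Kdr in pBIC10. The part of such cells in the levels of both genes was not tested.

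The values on either side of the selection's limits show how close other genes came. Rgs9, a regulator of G protein signalling known from retina and striatum, was just under the minimum for YC. It had 0.760, 0.408 and 0.484 CPM in pBIC10, 0.225, 0.0523 and 0 CPM in pBIC and 19.8, 30.3, 41.2 and 36.3 CPM in YC, so that 1 YC library kept it out. Psrc1, a microtubule-associated protein of dividing cells, had 0.431 to 0.643 CPM in pBIC10, 0.169 to 0.418 in pBIC and 16 to 24 in YC. The transcript 2510009E07Rik had 0.117 to 0.702 CPM in pBIC10, 0.157 to 0.674 in pBIC and 14.2 to 33.8 in YC.

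On the side of the lymphoma ceiling the nearest was Rn7sk, the small nuclear RNA that holds the elongation factor P-TEFb inactive. It had 0.526, 0.642 and 0.592 CPM in pBIC10, 1.01, 0.470 and 0.915 CPM in pBIC and 46.6, 69.1, 54.8 and 90.3 CPM in YC, and pBIC replicate 1 kept it out. The libraries were made from poly(A) RNA, and the part of library preparation in the levels of this small RNA was not tested. Hook1, which links vesicles to microtubule motors, had 0.816 to 1.56 CPM in pBIC10, 0.108 to 0.393 in pBIC and 23.1 to 31.0 in YC. Ccl22, a chemokine that attracts CCR4-bearing T cells, had 0.525 to 1.56 CPM in pBIC10, 0.915 to 1.07 in pBIC and 22.3 to 75.8 in YC. The count of 2 moved with the limits, and a YC minimum of 10 CPM gave 16 genes. The 14 it adds include Bcl11b and Tox2, which stand on the T cell and follicular helper T cell lists, and Prkcq, a kinase of T cell receptor signalling, at 10.3 to 36.2, 13.3 to 26.0 and 10.7 to 33.2 CPM in YC.

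**Figure D3:**
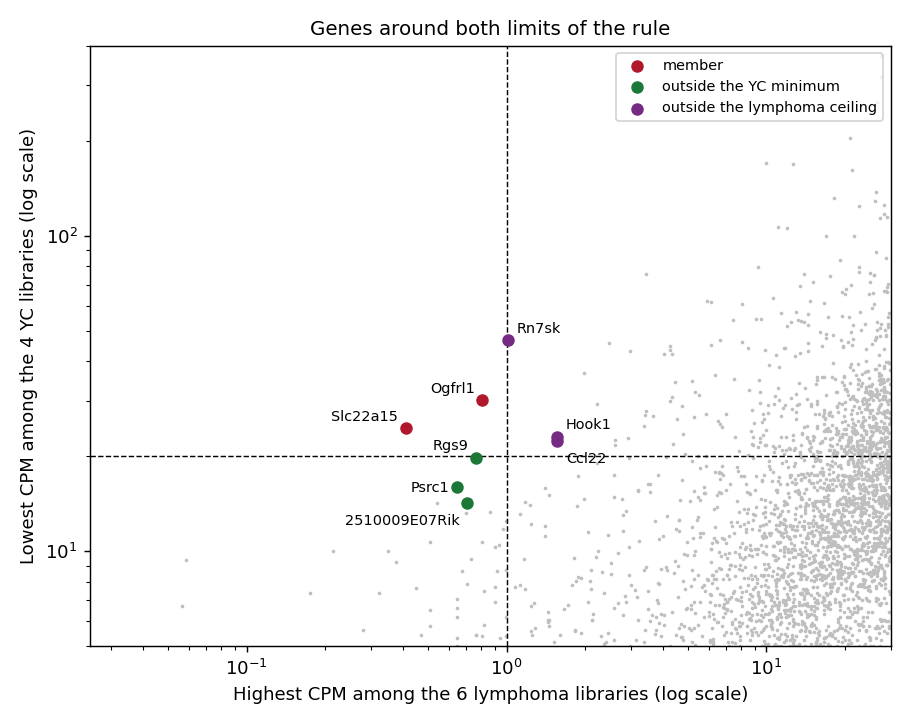
Highest CPM among the 6 lymphoma libraries against lowest CPM among the 4 YC libraries, both on log scales, for genes at 5 CPM or more in every YC library and under 30 CPM in every lymphoma library. Dashed lines mark the limits of 1 and 20 CPM, genes left out by name are not drawn, and grey points are all other genes. Ogfrl1 and Slc22a15 lie alone in the upper left, with Rgs9 (19.8 CPM in its lowest YC library) and Rn7sk (1.01 CPM in its highest lymphoma library) on the edges.

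Of the 3 genes left out by name, Gcsam, an adaptor of germinal centre B cells that regulates their movement, met both limits. It had 0.175, 0 and 0 CPM in pBIC10, 0, 0.0523 and 0 CPM in pBIC and 152, 44.2, 80.7 and 78.4 CPM in YC. Nuggc, a nuclear GTPase of germinal centre B cells, was under 1 CPM in every pBIC library and in no pBIC10 library, at 29.8, 22.6 and 3.07 CPM in pBIC10, 0.169, 0 and 0.108 CPM in pBIC and 157 to 195 CPM in YC. Rgs13, which dampens chemokine receptor signalling, had 0.994, 0.933 and 11.6 CPM in pBIC10, 0.0538 to 0.169 CPM in pBIC and 76.4 to 133 CPM in YC. In Rgs13, the level above 1 CPM came from 1 pBIC10 library.

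The relatives of both genes are described by family. Ogfr, the receptor that Ogfrl1 is named after, had 80.6, 74.5 and 71.2 CPM in pBIC10, 120, 122 and 152 CPM in pBIC and 95.8, 82.6, 109 and 102 CPM in YC. Every group was well above the ceiling, with pBIC10 lowest and pBIC highest in the means. Ogfr was lower in pBIC10 than in pBIC by -0.83 ± 0.17 on the log2 scale (adjusted p = 0.00236, edgeR), and it was called in all 18 alternatives. In pBIC10 against YC its difference was -0.39 ± 0.16 (adjusted p = 0.0518), with an adjusted p of 0.0326 to 0.183 over 16 alternatives. It was called in 7 of these 16, namely without pBIC replicate 1 or 3 or YC replicate 2 (0.0341, 0.0442 and 0.0363), with RLE or upper quartile scaling (0.0326 and 0.0373), by DESeq2 (0.0426) and without immunoglobulin and T cell receptor genes (0.0377). In pBIC against YC it was 0.44 ± 0.15 (adjusted p = 0.0288), and the call was lost without pBIC replicate 3 (0.111) or YC replicate 1, 2 or 4 (0.0739, 0.103 and 0.0653), and by DESeq2 (0.0533).

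The table holds 25 other Slc22a genes. Of these, 21 stayed under 1 CPM in every library, 4 of them with 0 counts in all libraries, and 1, Slc22a5, reached 1 CPM in every library of all groups. Slc22a5, a carnitine transporter, had 13.4, 11.1 and 12.8 CPM in pBIC10, 14.1, 11.7 and 17.8 CPM in pBIC and 10.8, 9.21, 12.7 and 12.8 CPM in YC. Its groups overlapped, and its log2 difference from YC was 0.10 ± 0.22 in pBIC10 (95% interval -0.37 to 0.57, adjusted p = 0.726, edgeR) and 0.35 ± 0.22 in pBIC (95% interval -0.12 to 0.82, adjusted p = 0.189). Of the 5 other family genes that could be tested, 1 was called against YC in each lymphoma, Slc22a17, which was lower, against 51.7% of all genes tested called in pBIC10 and 54.1% in pBIC. Slc22a17, a receptor of lipocalin 2, had 0.409, 0.700 and 0.484 CPM in pBIC10, 0.281, 0.209 and 0.161 CPM in pBIC and 2.23, 3.89, 1.05 and 3.27 CPM in YC. Its log2 difference from YC was -2.30 ± 0.52 in pBIC10 (adjusted p = 0.00243, edgeR) and -3.54 ± 0.58 in pBIC (adjusted p = 2.43e-04). Slc22a17 passed the filter on low counts only through YC, so its calls could hardly be other than lower. None of the 5 was called between pBIC10 and pBIC by edgeR, against 30.7% of all genes tested.

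Among the chromosomal neighbours of the 2 genes, calls against YC were made in both directions, and some of the lower ones rest on few reads. The 3 nearest protein-coding genes on each side were taken from the RefSeq gene order of GRCm38.p6, a build other than that of the counts, and all 12 were in the table. Of the 7 that could be tested with edgeR, 2 were lower, 2 higher and 3 not called in pBIC10 against YC, and 3 were lower, 3 higher and 1 not called in pBIC against YC. In pBIC10 against pBIC 0 of 7 were called. The shares of all genes tested were 51.7, 54.1 and 30.7% in the same 3 comparisons. Igsf3 and Vangl1, called lower in both lymphomas, had 0 to 6 counts in each lymphoma library. They passed the filter on low counts only through YC, so their calls could hardly be other than lower. No annotated gene overlaps Ogfrl1 or Slc22a15.

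Beside Ogfrl1 lie Kcnq5, Rims1 and Ppp1r14bl on one side and B3gat2, Smap1 and Sdhaf4 on the other. Kcnq5, a voltage-gated potassium channel, averaged 43.6 CPM in pBIC10, 30.8 in pBIC and 21.0 in YC. It was higher than in YC by 1.03 ± 0.19 on the log2 scale in pBIC10 (adjusted p = 5.78e-04, edgeR) and by 0.54 ± 0.19 in pBIC (adjusted p = 0.0283). The call in pBIC was lost without pBIC replicate 1 (adjusted p = 0.131) or YC replicate 2, 3 or 4 (0.0853, 0.0787 and 0.0597), and with sex as a covariate (0.0569). Smap1, a GTPase-activating protein of Arf6, averaged 43.5 CPM in pBIC10, 40.6 in pBIC and 55.9 in YC. Its difference from YC was -0.38 ± 0.16 in pBIC10 (adjusted p = 0.0641, and 0.0447 without pBIC10 replicate 2, 0.0481 without pBIC replicate 1 and 0.0434 with RLE scaling) and -0.46 ± 0.16 in pBIC (adjusted p = 0.0302). The call in pBIC was lost without pBIC replicate 1 or 2 (0.0766 and 0.0785) or YC replicate 1 or 2 (0.0523 and 0.0503), and with no filter on low counts (0.130). Sdhaf4, an assembly factor of succinate dehydrogenase, averaged 4.94 CPM in pBIC10, 6.96 in pBIC and 3.55 in YC. It was called in pBIC against YC (0.99 ± 0.28, adjusted p = 0.00883) and not in pBIC10 against YC (0.45 ± 0.28, adjusted p = 0.195). B3gat2, a glucuronyltransferase, averaged 2.01 CPM in pBIC10, 1.21 in pBIC and 1.28 in YC and was not called.

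Near Slc22a15 lie Igsf3 and Mab21l3 on one side and Nhlh2, Casq2 and Vangl1 on the other, all with few reads in any group. Igsf3, an immunoglobulin superfamily membrane protein, averaged 0.0943 CPM in pBIC10, 0.199 in pBIC and 0.894 in YC. Its difference from YC was -3.16 ± 0.70 on the log2 scale in pBIC10 (adjusted p = 0.00221, edgeR) and -2.13 ± 0.63 in pBIC (adjusted p = 0.0119, and 0.0601 without pBIC replicate 2). Vangl1, a planar cell polarity protein, averaged 0.151 CPM in pBIC10, 0.108 in pBIC and 0.763 in YC. Its call in pBIC10 against YC (adjusted p = 0.0290) was lost without any 1 of the pBIC10 replicates, at 0.0522, 0.123 and 0.0858 without replicates 1, 2 and 3. Its call in pBIC against YC (adjusted p = 0.0145) was lost without pBIC replicate 1 or 2, at 0.0601 and 0.0589. Mab21l3, which lies directly beside Slc22a15 in this order, had 0 counts in all 6 lymphoma libraries and 0.372, 1.19, 0 and 0.435 CPM in YC.

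**Figure D4:**
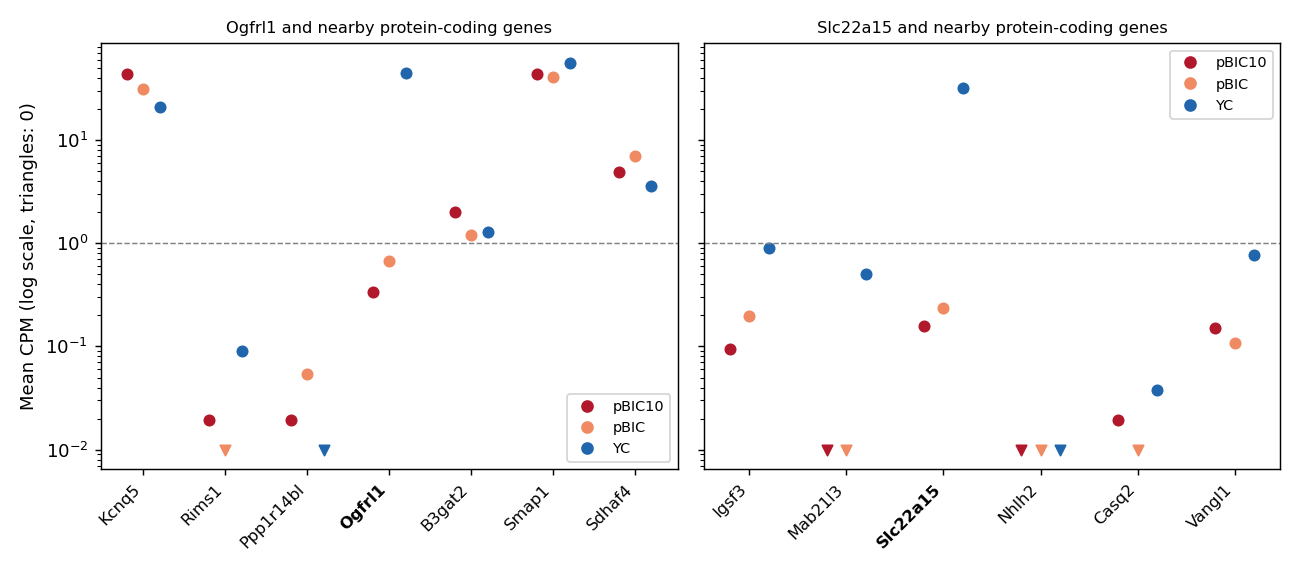
Mean CPM on a log scale of Ogfrl1 (left) and Slc22a15 (right), each in bold among nearby protein-coding genes in chromosomal order, in pBIC10 (dark red), pBIC (orange) and YC (blue). Triangles stand for a mean of 0, and the dashed line marks 1 CPM. Kcnq5 and Smap1 lie above 20 CPM in every group, whereas Ogfrl1 and Slc22a15 lie above 1 CPM in YC alone.

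The other genes of a germinal centre list give the setting of both. Of 75 listed genes, 74 were in the table, and all 74 were tested with edgeR. The list also holds genes such as Fcer2a and Cr2, which follicular B cells outside germinal centres carry. Its counts and medians therefore do not stand for germinal centre genes alone. The list was chosen with earlier results of these data known. Gcsam, on the list, met both limits of the selection, so a call of it against YC was bound to be lower. Sh2d1a had 0.323 CPM or less in each lymphoma library and passed the filter on low counts only through YC. A call of Sh2d1a against YC could therefore hardly be other than lower. In pBIC10 against YC 51 were lower, 7 higher and 16 not called, against 51.7% called of all genes tested, with a median log2 difference of -1.17 over the list and 0.01 over all genes. In pBIC against YC 54 were lower, 5 higher and 15 not called, against 54.1% of all genes, with a median of -1.35 over the list and 0.02 over all genes. In pBIC10 against pBIC 10 were lower, 24 higher and 40 not called, against 15.1% lower and 15.6% higher of all genes tested, with a median of 0.37 over the list and -0.01 over all genes.

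Of the 74, 3 genes, Mef2b, Gcsam and Sh2d1a, were under 1 CPM in every lymphoma library. Their YC levels differed widely from each other. Mef2b averaged 10.4 CPM in YC, and Sh2d1a, also on the follicular helper T cell list, averaged 1.44 CPM in YC, where its lowest library (0.238 CPM) was under its highest lymphoma library (0.323 CPM). Bcl6, the repressor that defines the germinal centre state, had 5.73, 4.20 and 4.14 CPM in pBIC10, 9.95, 4.29 and 3.93 CPM in pBIC and 322, 170, 234 and 171 CPM in YC. Its lymphoma levels were low and still above the ceiling in each library. S1pr2, a receptor that confines cells to the follicle, averaged 20.2 ± 8.78 CPM in pBIC10, 5.26 ± 3.54 in pBIC and 172 ± 38.4 in YC (SD, n = 3, 3 and 4). Mybl1, a transcription factor of germinal centre cells, averaged 7.64 ± 1.51 CPM in pBIC10, against 5.84 ± 4.83 CPM in pBIC and 98.1 ± 46.1 CPM in YC libraries.

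The list genes with the smallest adjusted p against YC held both directions. Fcer2a, the low-affinity IgE receptor, averaged 8.14 CPM in pBIC10, 1.06 in pBIC and 588 in YC, and was lower by -6.20 ± 0.28 in pBIC10 (adjusted p = 3.08e-08, edgeR) and -9.10 ± 0.33 in pBIC (adjusted p = 8.19e-09). Neil1, a DNA glycosylase of base excision repair, averaged 23.2 CPM in pBIC10, 4.31 in pBIC and 429 in YC, with differences of -4.23 ± 0.27 (adjusted p = 2.70e-07) and -6.64 ± 0.30 (adjusted p = 3.60e-08). In pBIC10 the next were Il21r, the interleukin 21 receptor, at -2.67 ± 0.17 (adjusted p = 2.99e-07), and Cd83, a surface marker of light zone cells, at -3.92 ± 0.26 (adjusted p = 4.40e-07). In pBIC they were Foxo1, a transcription factor of dark zone cells, at -3.07 ± 0.18 (adjusted p = 1.69e-07), and Sema7a, a membrane semaphorin, at -3.44 ± 0.25 (adjusted p = 7.12e-07).

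Among list genes that were higher than in YC, Slamf6, a receptor of lymphocyte contacts, averaged 236 CPM in pBIC10, 153 in pBIC and 88.8 in YC, with differences of 1.39 ± 0.20 (adjusted p = 1.15e-04, edgeR) and 0.80 ± 0.20 (adjusted p = 0.00515). Apex1, the abasic site endonuclease, averaged 217 CPM in pBIC10, 210 in pBIC and 96.6 in YC, a difference from YC of 1.14 ± 0.19 in each lymphoma (adjusted p = 2.84e-04 and 2.98e-04). In pBIC10 the complement regulator Cd55 was higher by 1.91 ± 0.38 (adjusted p = 0.0015). Cd55 moved the other way in pBIC, by -5.03 ± 0.50 (adjusted p = 1.31e-05), with means of 287 CPM in pBIC10, 2.33 in pBIC and 74.7 in YC. In pBIC the ectoenzyme Cd38 was higher by 1.53 ± 0.36 (adjusted p = 0.00418) and Pdcd1lg2, which encodes PD-L2, by 1.21 ± 0.31 (adjusted p = 0.00537). In pBIC10 against YC neither was called, at 0.49 ± 0.36 for Cd38 (adjusted p = 0.278) and 0.63 ± 0.31 for Pdcd1lg2 (adjusted p = 0.105, and 0.0427 without pBIC replicate 3).

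**Figure D5:**
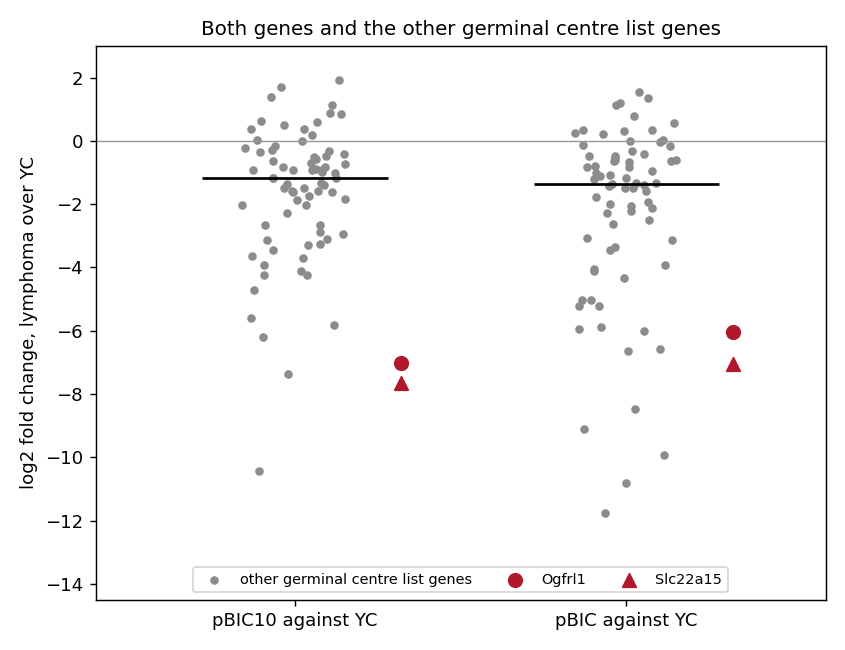
Log2 fold change, lymphoma over YC, of the 74 other germinal centre list genes (grey points, with the median as a line), Ogfrl1 (circle) and Slc22a15 (triangle), for pBIC10 and pBIC. Values of genes with a few counts in a lymphoma depend on the fit. The list medians lie at -1.17 and -1.35, Ogfrl1 at -7.02 and -6.03, and Slc22a15 at -7.65 and -7.04, where the selection placed them.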

How the data were processed

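Poly(A) RNA of sorted splenic B cells was read as 50 nt single-end reads, per the labels. Raw counts per gene for 10 libraries were deposited by the authors, who made them with featureCounts after FastQC on GRCm39, per the submitters' processing notes. For the aligner, versions, annotation and strand setting, the entry is: not given in the sources used here. CPM is a count divided by the sum of its column. The genes and lists were chosen with earlier results of these data known.

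Genes passing filterByExpr (17718 of 46316) were scaled by TMM and fitted with edgeR 4.0.16 (R 4.3.3) over all 10 libraries with 1 coefficient per group (robust quasi-likelihood). A gene was called at a Benjamini-Hochberg adjusted p under 0.05, two-sided. SE was approximated as the absolute log2 difference over the root of F. DESeq2 1.42.0, other scalings and filters, sex as a covariate and leaving out each library were alternatives. Intervals of counts are exact 95% Poisson intervals and, like the limit of 3 counts used for a count of 0, cover counting error only. Both genes were named, with the 3 genes nearest to each limit, and up to 4 list genes a direction, ranked by adjusted p against YC. Family members, neighbours and relaxed-limit genes were named after their values were seen. Some genes these rules name are not reported here. The fit was tested on simulated data. Figures used matplotlib 3.10.9.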

Additional observations from a re-analysis of the deposited data

Results flagged for a closer look

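Of 32 genes whose 4 YC libraries were looked at, 2 had 1 library far from the others, and chance gives such a gap in about 1 of 20 groups. 2510009E07Rik, just outside the YC minimum, had 33.8 CPM in YC replicate 1, against 17.1 CPM in the next highest YC library. Neil1, of the germinal centre list, had 550 CPM in YC replicate 3, against 397 CPM in the next highest. Neither Ogfrl1 nor Slc22a15 had such a gap in YC.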

How the results depend on the processing

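The number of genes follows from the limits. It was 16 at a YC minimum of 10 CPM, 0 at 40 CPM, 1 (Slc22a15) at a lymphoma ceiling of 0.5 CPM and 6 at 2 CPM. Leaving out each library gave 2 to 4 genes, with 4 without pBIC replicate 1 (adding Rn7sk and Grm6) and 4 without YC replicate 1 (adding Rgs9 and 2900060B14Rik). Both genes stayed selected with TMM library sizes, and without immunoglobulin and T cell receptor segments in the totals, an alternative chosen after seeing the data; each gave 3 genes. In pBIC10 against pBIC, 0 to 1 of the 2 genes were called lower when libraries were left out, with Slc22a15 called without pBIC10 replicate 1. Its difference was then -2.78, and 0.01 without pBIC10 replicate 3. Slc22a15 did not pass filterByExpr among the lymphoma libraries alone, so that fit was also run without the filter, again after seeing the data. Counts of the other germinal centre list genes moved by less than 1.5 times in every alternative that kept all 3 groups. They were not counted in the fits of the lymphoma libraries alone. Leaving out libraries gave 45 to 52 lower in pBIC10 against YC and 45 to 55 lower in pBIC against YC. The lymphoma levels of the 2 genes rest on 0 to 15 counts per library, and the interval of Slc22a15 between the lymphomas ran from -2.35 to 1.12. No paired analysis was possible because the replicate numbers only name libraries of different mice.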

Other observations

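The 14 genes that a YC minimum of 10 CPM adds were described here after their values were seen, with no test. Gxylt2, a xylosyltransferase acting on Notch, was among the lowest in the lymphomas, at 0 to 0.0538 CPM in pBIC10, 0.0562 to 0.215 CPM in pBIC and 10.0 to 16.7 CPM in YC. B3gnt7, a glycosyltransferase, had 0.409 to 0.807 CPM in pBIC10, 0 to 0.0523 CPM in pBIC and 10.7 to 17.4 CPM in YC. Usp2, a deubiquitinase, had 0.161 to 0.643 CPM in pBIC10, 0.269 to 0.993 CPM in pBIC and 12.5 to 20.8 CPM in YC. Ccdc88a, an actin-binding protein of cell migration, had 0.292 to 0.819 CPM in pBIC10, 0.575 to 0.969 CPM in pBIC and 11.8 to 20.1 CPM in YC. Asb2, a subunit of ubiquitin ligases, had 0.754 to 0.933 CPM in pBIC10, 0.323 to 0.627 CPM in pBIC and 10.5 to 17.1 CPM in YC. Hid1, a protein of the Golgi, had 0.0583 to 0.351 CPM in pBIC10, 0.0538 to 0.281 CPM in pBIC and 10.0 to 35.9 CPM in YC. Fam234b had 0.175 to 0.538 CPM in pBIC10, 0.323 to 0.393 CPM in pBIC and 14.2 to 17.6 CPM in YC. The transcript 2900060B14Rik had 0.526 to 0.700 CPM in pBIC10, 0.393 to 0.646 CPM in pBIC and 13.2 to 33.2 CPM in YC. A lymphoma ceiling of 2 CPM adds Lrrc56, at 0.969 to 1.75 CPM in pBIC10, 1.35 to 1.99 CPM in pBIC and 36.8 to 51.2 CPM in YC.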
